A study of Mus musculus with 12 samples.

Results

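The genes of death ligand signalling, its receptors and the DAPK kinases were followed across leukaemic and normal T-lineage cells with and without MBD2, a protein that binds methylated CpG sites in DNA. They are 10 genes, of 18193 with at least 1 probe set of their own, chosen by gene symbol and taken with all 20 of their single-gene probe sets, of 34945 such probe sets in all, on Affymetrix arrays of total RNA. They were Tnfsf10, Tnfrsf10b, Fas, Fadd, Casp8, Cflar, Tnfrsf1a, Dapk1, Dapk2 and Dapk3. The samples were GFP+ bone marrow leukaemia cells from recipients with Notch1-driven T-cell acute lymphoblastic leukaemia (T-ALL) of MBD2-/- origin (3 arrays) or of MBD2 wild-type origin (3 arrays). The other 6 arrays were CD4+CD8+ double positive (DP) thymocytes sorted from steady-state MBD2-/- mice (3 arrays) and MBD2 wild-type mice (3 arrays). Leukaemia cells were sorted once more than 50% of the white blood cells in peripheral blood carried GFP. The labels do not say whether each leukaemia sample came from its own recipient or its own primary tumour, nor what genotype the recipients had, and DP thymocytes are 1 stage of T-cell development and are not labelled as matched to these leukaemias.

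Death ligands of the TNF family bind receptors whose cytoplasmic death domains recruit the adaptor FADD, which in turn gathers and activates the initiator protease caspase 8. The protein encoded by Cflar, cFLIP, resembles caspase 8 and competes with it for FADD. In the thymus, T-cell precursors die in large numbers during selection, and Fas is a well-known receptor of DP thymocytes. The DAPK genes encode calcium/calmodulin-regulated or related serine/threonine kinases that promote cell death and autophagy, and DAPK1 is known in human tumours as a gene that DNA methylation can silence.

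The labelled genotypes were checked on Mbd2 itself, whose intensity was 54.4 ± 12.4 in MBD2-/- against 820.4 ± 119 in MBD2 wild-type leukaemias, and 72.1 ± 10.7 in MBD2-/- against 1136 ± 206 in MBD2 wild-type DP thymocytes (mean ± SD, n = 3 each). Of the DP markers, Rag1 averaged 11113 and 11101 in MBD2-/- and MBD2 wild-type thymocytes, and 18.5 and 39.4 in MBD2-/- and MBD2 wild-type leukaemias. T-lineage markers were present in all groups, with Cd3e at 2582 in MBD2-/- leukaemias, 2177 in MBD2 wild-type leukaemias, 3779 in MBD2-/- thymocytes and 4320.4 in MBD2 wild-type thymocytes. Of the myeloid markers, summed over 9 genes, MBD2-/- leukaemias held 282 to 735, MBD2 wild-type leukaemias 906 to 1759, MBD2-/- thymocytes 272 to 471 and MBD2 wild-type thymocytes 236 to 580, and 4 of the 9 stayed below background level throughout. S100a8 read 43.2 to 278 in MBD2-/- against 367 to 795 in MBD2 wild-type leukaemias, and Lyz2 26.4 to 36.9 against 50.8 to 63.2. S100a9 averaged 139.9 in MBD2-/- against 461 in MBD2 wild-type leukaemias, and the arrays of the genotypes did not overlap for any of these 3. Between the leukaemia genotypes 33.4% of all genes had groups without overlap. The part of myeloid markers in the results was not tested. The leukaemia genotypes also differed in markers of T-cell stage, and not all DP markers were highest in thymocytes. Cd8a averaged 218 in MBD2-/- and 2729 in MBD2 wild-type leukaemias, against 6584 and 6184 in MBD2-/- and MBD2 wild-type thymocytes. Ptcra, of the pre-T-cell receptor, averaged 31.6 in MBD2-/- and 1583 in MBD2 wild-type leukaemias, against 465 and 381 in MBD2-/- and MBD2 wild-type thymocytes. Dntt went the other way between the leukaemia genotypes, at 4003 in MBD2-/- and 1349.7 in MBD2 wild-type leukaemias. It averaged 11303 in MBD2-/- and 11557 in MBD2 wild-type thymocytes. The part of these markers in the results was not tested. The MBD2-/- leukaemias carried Xist at 36.5 and the Y-linked Eif2s3y at 519, against 4193 and 7.31 in MBD2 wild-type leukaemias, so sex and genotype cannot be told apart there. The wild-type thymocytes, with Xist at 35.4 and Eif2s3y at 395, differed from the wild-type leukaemias in the same way, so sex and cell type cannot be told apart in that comparison. Because these are bulk samples, fewer cells that express a gene and less RNA per cell cannot be told apart either. Poly-A control transcripts added to the RNA gave signal on 5 arrays (MBD2-/- leukaemia 1, MBD2 wild-type leukaemias 1 and 2, and MBD2 wild-type thymocytes 1 and 2) and none on the other 7. The ratio of 3' to 5' Gapdh probe sets, a sign of degraded RNA when high, was 0.964 to 1.14 with that signal and 1.12 to 3.68 without it.

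Intensities are probe set brightness on a linear scale and are not comparable between genes. The highest intensity of the bacterial poly-A control probe sets on the 7 arrays without their targets, 35.3, served as the level below which a gene cannot be told from background. Of the 20 probe sets, 11 exceeded it on all 12 arrays and 3, both Tnfrsf10b probe sets and 1 of Dapk3, on none. Each gene was represented by its probe set with the highest mean log2 level, all 10 genes passed the filter on low values, and differences are limma coefficients on the log2(intensity + 16) scale with their standard error (SE). A gene was called at a Benjamini-Hochberg adjusted p under 0.05 over the 15420 genes tested. The labels do not say whether the replicates are separate animals, so the p-values measure the spread between these samples, which may be technical. The 4 comparisons between groups share arrays in pairs and are not independent of each other.

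Between the leukaemia genotypes Tnfsf10, Dapk1 and Cflar rose in MBD2-/- cells and none of the 10 genes passed in the other direction. Over all genes tested, 9.19% were called higher and 6.98% lower, 16.2% in all. Between the thymocyte genotypes 0 of the 10 genes passed with limma, where 0.0324% of all genes did, and 1, Dapk3, had an unadjusted p under 0.05, as had 4.68% of all genes. Between MBD2 wild-type leukaemias and MBD2 wild-type thymocytes 1 gene was higher (Fadd) and 4 were lower (Fas, Tnfrsf1a, Dapk1 and Cflar), where 19.7% of all genes were higher and 14.2% lower, 33.9% in all. Between MBD2-/- leukaemias and MBD2-/- thymocytes 2 were higher (Tnfsf10 and Casp8) and 3 lower (Fas, Tnfrsf1a and Dapk1), where 18.5% of all genes were higher and 11% lower, 29.4% in all. Groups without overlap were found for 45.7% of all genes between the MBD2 wild-type leukaemias and thymocytes and 42.1% between the MBD2-/- ones. The median log2 difference of the 10 genes was 0.12 between the leukaemia genotypes, where the median of all genes was −0.06, and −0.03 between the thymocyte genotypes, where it was −0.02.

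**Figure D1:**
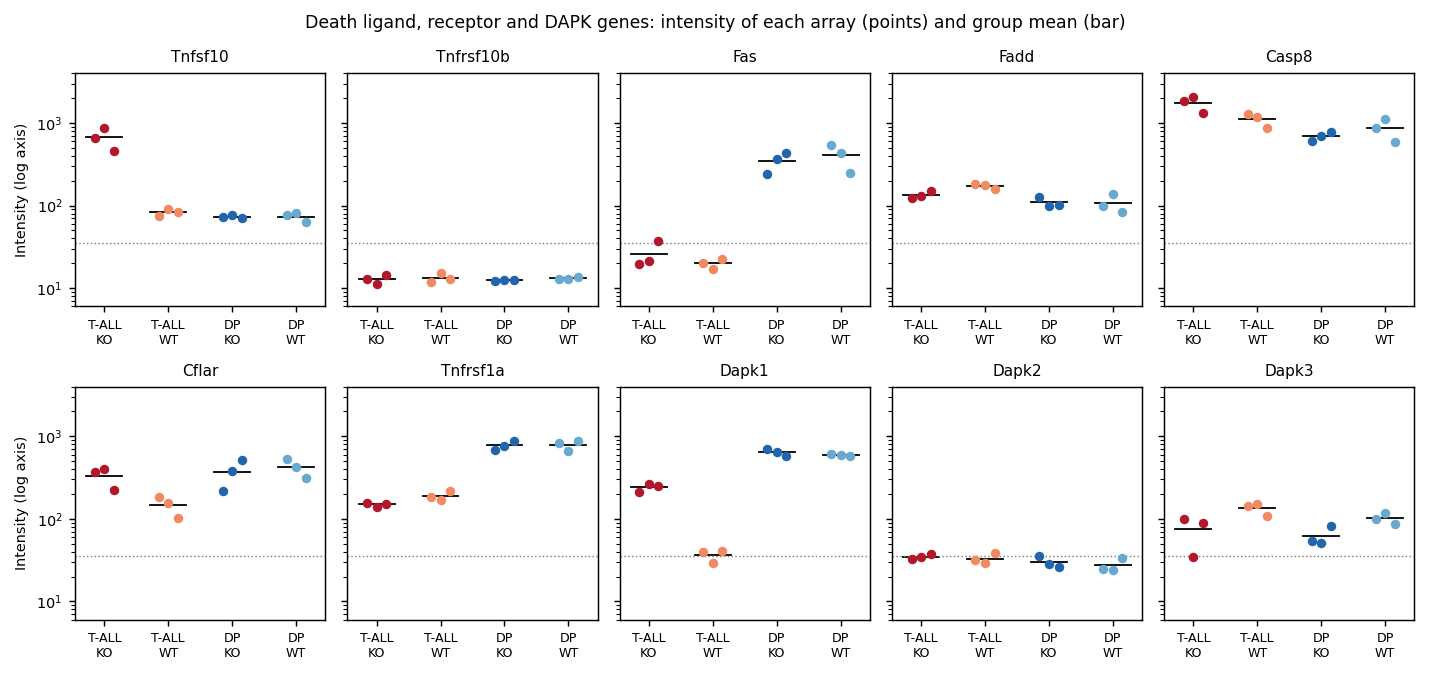
Intensity (log axis) of the 10 genes on each array, 1 point per array and a bar at the mean of 3 arrays, for MBD2-/- (KO) and MBD2 wild-type (WT) leukaemias (T-ALL) and DP thymocytes; the dotted line is the background level of 35.3. Tnfsf10 is high in the 3 KO leukaemias alone, Dapk1 is lowest in the 3 WT leukaemias, and Fas and Tnfrsf1a are high in all 6 thymocyte arrays.

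Promoter sequence is shown for the 3 genes called between the leukaemia genotypes because MBD2 binds CpG sites when they are methylated. The windows are the 250 bases before an annotated transcription start, from RefSeq on GRCm38.p6, plus strand, with every CpG in capitals. They lie at chr3:27316827-27317076 for Tnfsf10, chr13:60601961-60602210 for Dapk1 and chr1:58711241-58711490 for Cflar.
Tnfsf10: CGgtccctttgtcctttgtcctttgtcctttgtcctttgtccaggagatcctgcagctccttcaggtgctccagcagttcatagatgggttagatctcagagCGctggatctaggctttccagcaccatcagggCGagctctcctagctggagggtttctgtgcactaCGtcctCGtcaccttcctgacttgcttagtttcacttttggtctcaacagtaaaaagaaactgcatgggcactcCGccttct
Dapk1: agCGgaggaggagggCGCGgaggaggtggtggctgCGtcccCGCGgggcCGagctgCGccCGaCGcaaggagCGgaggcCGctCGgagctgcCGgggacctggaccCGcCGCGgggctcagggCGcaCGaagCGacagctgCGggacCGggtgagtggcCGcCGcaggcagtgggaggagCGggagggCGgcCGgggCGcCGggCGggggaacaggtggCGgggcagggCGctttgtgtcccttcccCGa
Cflar: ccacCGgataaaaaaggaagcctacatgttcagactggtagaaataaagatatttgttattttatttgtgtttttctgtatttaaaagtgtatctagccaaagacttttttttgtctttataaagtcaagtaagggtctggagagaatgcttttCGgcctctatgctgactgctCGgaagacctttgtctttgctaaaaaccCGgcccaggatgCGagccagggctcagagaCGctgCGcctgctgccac
The Dapk1 window holds 33 CpG, a count that 4.03% of all 32851 promoter windows of that length reach or exceed. The Tnfsf10 window holds 6 and the Cflar window 7, reached by 50.4% and 46.3% of windows, where the median window holds 6. Of the 10 genes, 9 had a window in the table. In the 6 genes that were not called, counts ran from 4 in 1 of the 3 Dapk3 windows and 5 in Casp8 to 25 in another Dapk3 window, with 9 in Tnfrsf1a, 11 in Fas, 19 in Fadd and 20 in Dapk2. Methylation was not measured in these samples.

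Tnfsf10 encodes the death ligand TRAIL. In MBD2-/- leukaemias its intensity was 662, 877 and 460.4, against 75.2, 91.4 and 83.2 in MBD2 wild-type leukaemias. In thymocytes it was 71.8, 76.7 and 71.3 in MBD2-/- cells and 76.2, 80.4 and 63.6 in MBD2 wild-type cells. Every MBD2-/- leukaemia lay above the other 9 arrays, and the other 3 groups lay close together, with the MBD2 wild-type leukaemias overlapping both thymocyte groups. The difference between the leukaemia genotypes was 2.74 (SE 0.22, 95% interval 2.21 to 3.27, adjusted p = 0.000329, higher in 3 of 3 arrays). It was 2.78 among the arrays with poly-A signal (1 against 2) and 2.72 among those without (2 against 1). In thymocytes the genotype difference was 0.00 (95% interval −0.25 to 0.26, adjusted p = 0.998).

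The leukaemia against thymocyte difference of Tnfsf10 was 2.89 without MBD2 (SE 0.22, adjusted p = 9.82e-05) and 0.15 with MBD2 (SE 0.12, adjusted p = 0.396). Between the leukaemia genotypes all 3 of its probe sets passed. The second, 1420412_at, read 199, 201 and 339.7 in MBD2-/- and 31.8, 31.8 and 37.2 in MBD2 wild-type leukaemias (2.37, SE 0.21, adjusted p = 0.00071 over the 28372 probe sets tested). The third, 1459913_at, read 817, 1208 and 331 in MBD2-/- and 95.7, 81.6 and 46.4 in MBD2 wild-type leukaemias (3.01, SE 0.47, adjusted p = 0.00792). Over all probe sets tested, 12.9% were called in this comparison, 7.64% higher. By 1420412_at the MBD2 wild-type leukaemias lay above all 6 thymocyte arrays, at 16.2 to 28.2, without passing (0.38 over MBD2 wild-type thymocytes, adjusted p = 0.0837). For this probe set both thymocyte groups and 2 of 3 MBD2 wild-type leukaemias were below the background level, and MBD2-/- leukaemias were at least 6.77-fold higher than MBD2-/- thymocytes. Among the MBD2-/- leukaemias replicate 3 was the lowest by 2 of the probe sets and the highest by 1420412_at.

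**Figure D2:**
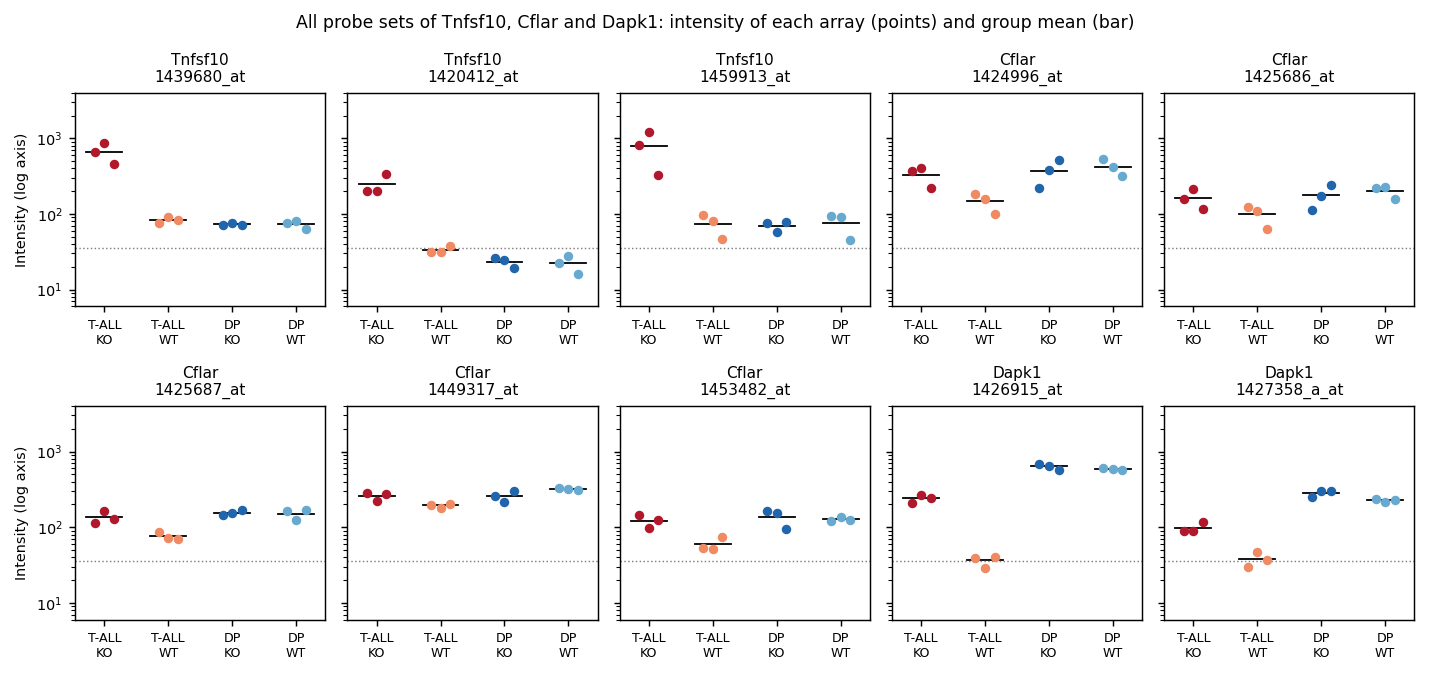
Intensity (log axis) on each array for the 3 probe sets of Tnfsf10, the 5 of Cflar and the 2 of Dapk1, with 1 point per array, a bar at each group's mean and the background level of 35.3 as a dotted line. All 3 Tnfsf10 probe sets are high in KO leukaemias alone, and the WT leukaemias have the lowest mean of the 4 groups by every probe set of Cflar and Dapk1.

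Of the receptors, Tnfrsf10b encodes the mouse receptor of TRAIL. Its probe set 1421296_at read 11.3 to 14.3 in MBD2-/- leukaemias, 11.9 to 15.1 in MBD2 wild-type leukaemias, 12.3 to 12.6 in MBD2-/- thymocytes and 12.7 to 13.6 in MBD2 wild-type thymocytes. The second, 1422344_s_at, which was not tested because of its low values, read 8.68 to 13.2 over the 12 arrays. Both stayed below the background level on all arrays, so no level of this receptor's transcript can be given in any group, and the genotype differences of −0.02 and −0.03 carry no information on it.

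Fas, the receptor of Fas ligand, separated the cell types. It read 19.3, 21.1 and 37.4 in MBD2-/- leukaemias and 20.4, 17.2 and 22.3 in MBD2 wild-type leukaemias. Thymocytes gave 239.7, 366 and 428 in MBD2-/- mice and 539, 438 and 247 in MBD2 wild-type mice. Both leukaemia groups overlapped near or below the background level, and all 6 thymocyte arrays stood above them. The MBD2 wild-type leukaemias were lower than the MBD2 wild-type thymocytes by a log2 difference of −3.50 (SE 0.26, adjusted p = 0.000111), and the thymocytes were at least 11-fold higher. Without MBD2 the difference was −3.09 (SE 0.24, adjusted p = 0.000124). It was −3.85 among MBD2 wild-type arrays with poly-A signal and −2.78 among those without (1 against 1). The genotype difference was 0.20 in leukaemias (95% interval −0.21 to 0.61, adjusted p = 0.525) and −0.20 in thymocytes (95% interval −0.94 to 0.53, adjusted p = 0.987). Only 1 of 3 MBD2-/- and 0 of 3 MBD2 wild-type leukaemia arrays exceeded the background level. The leukaemia value and its interval therefore do not bound a genotype difference. No MBD2-/- thymocyte array had poly-A signal, so genotype and poly-A set partly coincide there. Among thymocyte arrays without that signal (3 against 1) the Fas difference was 0.42. For Casp8 it was 0.22 and for Cflar 0.13, where all thymocyte arrays gave −0.27 and −0.24. For Tnfsf10 it was 0.17 and for Dapk1 0.15.

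Tnfrsf1a encodes the main death-domain receptor of TNF. It read 155, 139.7 and 153 in MBD2-/- leukaemias and 186, 170.4 and 218 in MBD2 wild-type leukaemias. In thymocytes it read 679, 768 and 877 without MBD2 and 817, 668 and 872 with it. The thymocyte genotypes overlapped, and all leukaemia arrays were lower than all thymocyte arrays. The leukaemia against thymocyte difference was −2.25 without MBD2 (SE 0.12, adjusted p = 2.41e-05) and −1.95 with MBD2 (SE 0.14, adjusted p = 9.78e-05). MBD2-/- leukaemias lay below MBD2 wild-type leukaemias on all arrays without passing (−0.32, SE 0.12, adjusted p = 0.122). Groups without overlap were found for 33.4% of all genes in that comparison.

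Fadd, the adaptor gene, read 124, 132 and 150.4 in MBD2-/- leukaemias and 184, 178 and 159 in MBD2 wild-type leukaemias. It read 127, 98.3 and 102 in MBD2-/- and 98.9, 137 and 84.1 in MBD2 wild-type thymocytes, whose ranges overlapped. The MBD2 wild-type leukaemias were higher than MBD2 wild-type thymocytes (0.65, SE 0.17, adjusted p = 0.0217). This call was lost without MBD2 wild-type leukaemia 1 (adjusted p = 0.0736), MBD2 wild-type leukaemia 2 (0.0774) or MBD2 wild-type thymocyte 1 (0.0714). Between the leukaemia genotypes the difference was −0.33 (SE 0.11, adjusted p = 0.0979), without overlap of the arrays. The second Fadd probe set, at 36.2 to 56.9 over the 12 arrays, lay just above the background level. It gave −0.26 between the leukaemia genotypes (adjusted p = 0.288). For MBD2 wild-type leukaemias against MBD2 wild-type thymocytes it gave 0.19 (adjusted p = 0.377), so it did not share the call.

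Casp8, the initiator caspase gene, read 1836, 2054 and 1337 in MBD2-/- leukaemias and 1277, 1166 and 868 in MBD2 wild-type leukaemias. It read 612, 699 and 773 in MBD2-/- and 876, 1125 and 593 in MBD2 wild-type thymocytes. MBD2-/- leukaemias were the highest group on all arrays, by a narrow gap over MBD2 wild-type leukaemias. Their difference from MBD2-/- thymocytes was 1.29 (SE 0.18, adjusted p = 0.00161). Against MBD2 wild-type leukaemias it was 0.65 (SE 0.21, 95% interval 0.15 to 1.14, adjusted p = 0.0843), and it passed when equal replicate numbers were fitted as a block (SE 0.11, adjusted p = 0.00783), and also without MBD2-/- leukaemia 3 (0.82, adjusted p = 0.033). The MBD2 wild-type leukaemias and thymocytes differed by 0.38 (SE 0.25, adjusted p = 0.32), with an adjusted p of 0.0492 under that block. Replicate numbers follow the Gapdh 3' to 5' ratio in the leukaemias and the MBD2 wild-type thymocytes, so this block and RNA quality cannot be told apart.

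Cflar lies next to Casp8 on chromosome 1 with 0 protein-coding genes annotated between them. Its probe set 1424996_at read 369, 399 and 223 in MBD2-/- leukaemias and 184, 156 and 101 in MBD2 wild-type leukaemias. Thymocytes read 218, 376 and 511 without MBD2 and 532, 422 and 316 with it. The MBD2-/- leukaemias were within the range of the thymocytes, while all 3 MBD2 wild-type leukaemias were below the other 9 arrays. The genotype difference in leukaemias was 1.08 (SE 0.27, 95% interval 0.43 to 1.73, adjusted p = 0.0392), and it was 1.05 among arrays with poly-A signal and 1.43 among those without. The call was lost without MBD2-/- leukaemia 1 (adjusted p = 0.105) or 2 (0.11), or MBD2 wild-type leukaemia 1 (0.0579), 2 (0.111) or 3 (0.0816), and the adjusted p was 0.00126 with replicate blocks.

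The other Cflar probe sets were all higher in MBD2-/- leukaemias, with log2 differences of 0.87 for 1453482_at (adjusted p = 0.0189), 0.70 for 1425687_at (0.0312), 0.64 for 1425686_at (0.205) and 0.39 for 1449317_at (0.0966) over all probe sets. Averaged over the 5 probe sets the difference was 0.73 (SE 0.11, adjusted p = 0.00556). Which transcript forms each probe set reads is not given in the sources used here. With MBD2, leukaemias were lower than thymocytes by all 5 probe sets, from −0.68 to −1.43 (adjusted p 0.00244 to 0.0298), where 13.6% of all probe sets were called lower. Without MBD2 the same differences ran from −0.20 to 0.00 and 0 of 5 passed in limma, where 27.3% of all probe sets did, at an adjusted p of 0.404 to 0.99 and with 0 of 5 at an unadjusted p under 0.05.

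Dapk1, the calmodulin-regulated kinase with a death domain, gave a graded pattern over the 4 groups. It read 211, 266 and 247 in MBD2-/- leukaemias and 39.2, 29.1 and 41.0 in MBD2 wild-type leukaemias. In thymocytes it read 694, 647 and 579 without MBD2 and 601, 585 and 573 with it. The MBD2 wild-type leukaemias were near the background level, the MBD2-/- leukaemias stood apart from every other group, and the thymocyte genotypes overlapped at the top. The genotype difference was 2.30 in leukaemias (SE 0.14, 95% interval 1.97 to 2.62, adjusted p = 9.49e-05) and 0.12 in thymocytes (SE 0.10, 95% interval −0.12 to 0.36, adjusted p = 0.982). In leukaemias it was 2.19 and 2.26 among the arrays with and without poly-A signal.

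Leukaemias had less Dapk1 than thymocytes in both genotypes, by −1.35 without MBD2 (SE 0.13, adjusted p = 0.000262) and −3.53 with MBD2 (SE 0.12, adjusted p = 9.22e-06). The level of MBD2-/- leukaemias was thus between those of the MBD2 wild-type leukaemias and the thymocytes. The second probe set, 1427358_a_at, read 88.1, 89.3 and 116 in MBD2-/- leukaemias and 29.7, 46.4 and 36.5 in MBD2 wild-type leukaemias (1.09, SE 0.16, adjusted p = 0.00574 over all probe sets). In MBD2-/- thymocytes it read 249.8, 301 and 305, all above the 234, 217 and 228 of MBD2 wild-type thymocytes, without passing (0.31, SE 0.11, adjusted p = 0.983). Between the thymocyte genotypes 8.64% of all genes had groups without overlap. Because the MBD2 wild-type leukaemias were near background, the size of the log2 difference depends on the constant added, and it ran from 1.60 to 2.70 over the settings tried.

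Neither of the other family members passed in any comparison. Dapk2, a kinase without the death domain of DAPK1, read 24.1 to 38.1 on the 12 arrays, of which 3 exceeded the background level, and its differences in the 4 comparisons ran from 0.05 to 0.17 without passing. Dapk3, whose product regulates myosin as well as cell death, read 99.8, 34.8 and 89.6 in MBD2-/- leukaemias and 144, 152 and 108 in MBD2 wild-type leukaemias. In thymocytes it read 53.1, 50.3 and 81.6 without MBD2 and 99.2, 117 and 86.8 with it. In both cell types each MBD2-/- array was below each MBD2 wild-type array. The difference was −0.81 in leukaemias (SE 0.32, adjusted p = 0.146) and −0.61 in thymocytes (SE 0.18, adjusted p = 0.891), and neither passed. Without MBD2-/- leukaemia 2, whose 34.8 was below the background level, the leukaemia difference was −0.44. Among thymocyte arrays without poly-A signal (3 against 1) the Dapk3 difference was −0.43. Groups without overlap were found for 33.4% of all genes between the leukaemia genotypes and 8.64% between the thymocyte genotypes. Dapk3 was at 0.36 in MBD2 wild-type leukaemias against MBD2 wild-type thymocytes (adjusted p = 0.126). It passed with replicate blocks (adjusted p = 0.0173), the poly-A set as a block (0.0215), centring on the 75th percentile (0.0474) and without MBD2 wild-type leukaemia 3 (0.0418). Its second probe set was below background throughout.

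**Figure D3:**
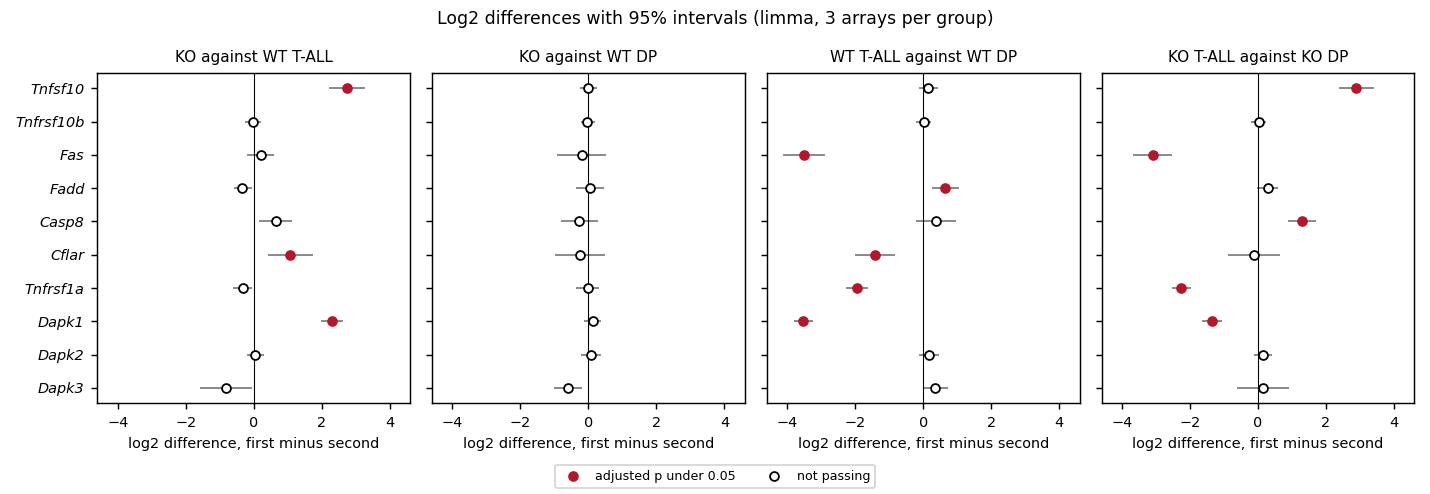
Log2 differences of the 10 genes with 95% intervals in 4 comparisons of 3 arrays with 3, first named group minus second; filled points have an adjusted p under 0.05 over all 15420 genes. The genotype difference in DP thymocytes passes for 0 genes, and Tnfsf10, Cflar and Dapk1 pass in leukaemias.

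The genotype difference in leukaemias was compared with that in thymocytes over all 12 arrays. Genotype coincides with sex in the leukaemias and not in the thymocytes, so the 2 cannot be told apart in this comparison. It passed for Tnfsf10 (2.73, SE 0.26, adjusted p = 3.17e-05) and Dapk1 (2.18, SE 0.17, adjusted p = 6.25e-06), and 12.6% of all genes passed. All 3 Tnfsf10 and both Dapk1 probe sets passed on their own, with 0.78 for the second Dapk1 probe set (adjusted p = 0.0272), where 9.63% of all probe sets passed. Cflar was at 1.32 (SE 0.46, adjusted p = 0.0906) and Casp8 at 0.92 (SE 0.33, adjusted p = 0.108). Of the Cflar probe sets 1449317_at passed (0.68, adjusted p = 0.0355) and the other 4 did not (0.0913 to 0.281). Averaged over probe sets Cflar was at 0.86 (adjusted p = 0.00528). Cflar passed without MBD2-/- leukaemia 3 (0.0425) or MBD2-/- thymocyte 3 (0.0467), and Casp8 without MBD2 wild-type thymocyte 3 (0.0249). For Fas (0.40, SE 0.39, adjusted p = 0.619) and Tnfrsf1a (−0.30, SE 0.19, adjusted p = 0.386) the effects were not shown to differ. Fas was near or below background in both leukaemia groups, so its value cannot decide whether they do.

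Some probe sets moved with the Gapdh 3' to 5' ratio of the array within groups, and the part of RNA quality in the differences was not tested beyond the values given here. The slope per doubling of the ratio, fitted over the 12 arrays, was −0.46 for Cflar 1424996_at (SE 0.09, adjusted p = 0.00646), −0.38 for Cflar 1425686_at (adjusted p = 0.0176) and −0.32 for Casp8 (SE 0.07, adjusted p = 0.014). Dapk2, near background, had a slope of 0.15 (adjusted p = 0.0269). Of all probe sets 20.1% had a slope that passed. The slopes of the other 3 Cflar probe sets were −0.04 to 0.11, and those of Dapk1 1426915_at (0.09, adjusted p = 0.291) and Tnfsf10 1439680_at (−0.10, adjusted p = 0.48) did not pass. Tnfsf10 1459913_at had a slope of −0.43 (SE 0.16, adjusted p = 0.0884), as steep as those of Cflar without passing. With the log2 ratio as a covariate, an alternative chosen after seeing the data, the leukaemia genotype difference was 1.26 for Cflar (SE 0.19, adjusted p = 0.00451) and 0.77 for Casp8 (SE 0.16, adjusted p = 0.0186), larger than without it for both.

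**Figure D4:**
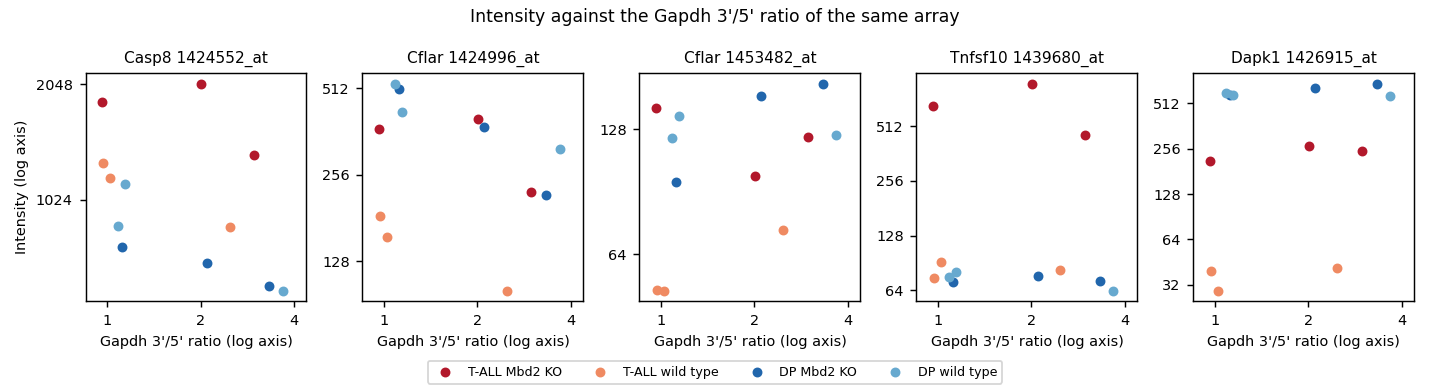
Intensity of 5 probe sets against the Gapdh 3' to 5' ratio of the same array (both axes log), 1 point per array, coloured by group. Casp8 and Cflar 1424996_at have fitted slopes below 0 within groups, whereas Cflar 1453482_at, Tnfsf10 1439680_at and Dapk1 1426915_at have slopes that did not pass.

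Of 40 other genes of the death receptor pathway, 35 had a probe set, the rest being not analysed here, and 32 were tested. Between the leukaemia genotypes 5 of the 32 were higher and 1 lower, where 9.19% of all genes were higher and 6.98% lower, and their median log2 difference was 0.07. The share of the list called is near that of all genes, and the called genes are given as single genes. Ptpn13, a phosphatase that binds the tail of human FAS, averaged 1583 ± 362 in MBD2-/- and 231 ± 63.7 in MBD2 wild-type leukaemias (2.70, adjusted p = 0.000627). Tnfrsf21, which encodes death receptor 6, read 60.5 to 116 in MBD2-/- leukaemias and 8.70 to 12.1, below background, in MBD2 wild-type leukaemias (at least 2.32-fold higher, adjusted p = 0.00096). Tnfaip3, whose ubiquitin-editing product A20 restrains NF-kB, rose by 1.35 (adjusted p = 0.00549), and the second TNF receptor gene Tnfrsf1b by 0.62 (adjusted p = 0.0062). The fifth was the caspase inhibitor gene Xiap, named after its value was seen (0.68, adjusted p = 0.0209). The gene that fell was Bid, whose product is cut by caspase 8 and carries the signal to mitochondria, at 384 ± 120.1 against 826 ± 113 (−1.11, adjusted p = 0.0219). Fasl, the ligand of Fas, averaged 30.9 in MBD2-/- and 18.7 in MBD2 wild-type leukaemias. Both means were below the background level, with 1 MBD2-/- array above it, at 46.3, and 0 MBD2 wild-type arrays.

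**Figure D5:**
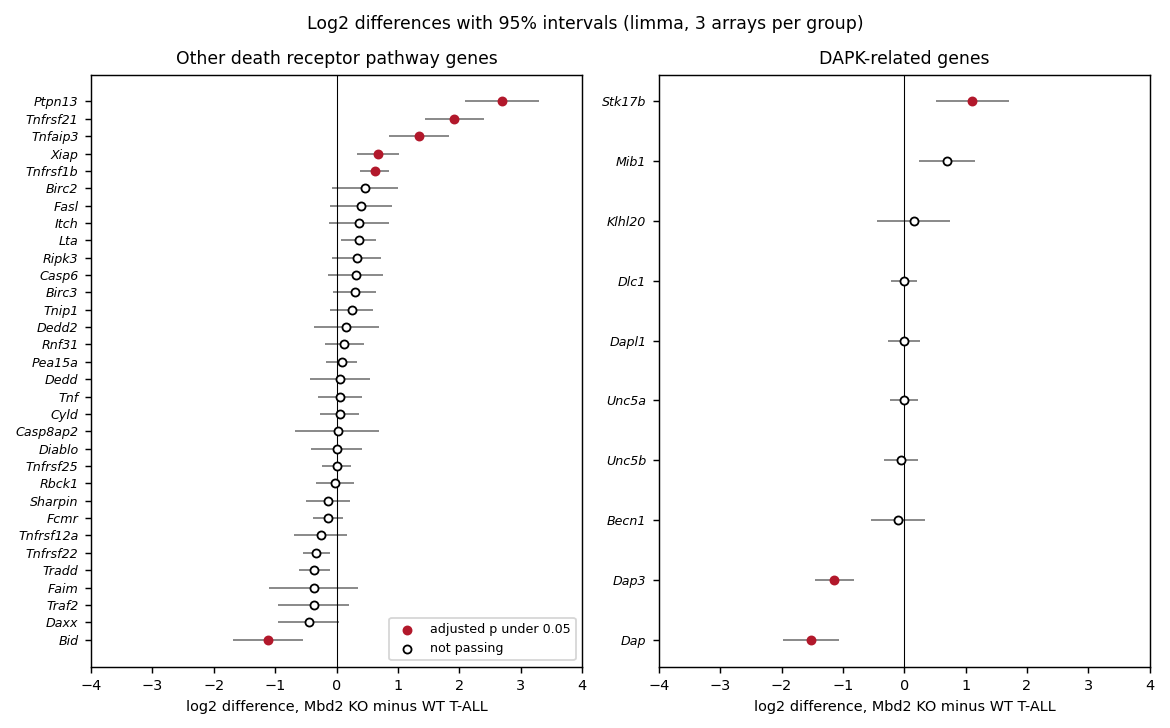
Log2 differences with 95% intervals, MBD2-/- minus MBD2 wild-type leukaemias, of 32 other death receptor pathway genes (left) and 10 DAPK-related genes (right); filled points have an adjusted p under 0.05 over all genes. Ptpn13, Tnfrsf21 and Tnfaip3 lie highest on the left (Tnfrsf21, below background in WT leukaemias, has no exact size), and Dap and Dap3 lowest on the right.

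Between MBD2 wild-type leukaemias and MBD2 wild-type thymocytes 6 of the 32 pathway genes were higher and 10 lower, where 19.7% of all genes were higher and 14.2% lower, at a median of −0.08 where all genes had 0.06. Ptpn13 (2.28), Bid (1.20), Faim (1.18) and Tnfrsf22 (0.53) were higher. Tnfrsf22 was above background on 1 of 3 MBD2 wild-type thymocyte arrays, so the size of its difference is uncertain. Tnfaip3 (−2.77), Birc2 (−1.34), Birc3 (−0.93) and Cyld (−0.79) were lower, of which Birc2 and Birc3 encode the ubiquitin ligases cIAP1 and cIAP2 of the TNF receptor complex. Between MBD2-/- leukaemias and MBD2-/- thymocytes 5 were higher and 3 lower, where 18.5% of all genes were higher and 11% lower, at a median of 0.07. Ptpn13 averaged 1583 in MBD2-/- leukaemias against 30.8 in MBD2-/- thymocytes. It was above background on 1 of 3 MBD2-/- and 1 of 3 MBD2 wild-type thymocyte arrays, so the size of its differences from both is uncertain. Tnfrsf21 was at least 2.32-fold higher in MBD2-/- leukaemias than in MBD2-/- thymocytes, where it was below background (adjusted p = 0.00165). Tnfrsf1b (1.17) and Ripk3 (1.08), the kinase gene of necroptosis, were higher too, and Tnfaip3 (−1.34), Cyld (−0.55) and Birc3 (−0.54) lower. Between the thymocyte genotypes 0 of the 32 passed in limma.

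Of 13 DAPK-related genes 11 had a probe set and 10 were tested. Between the leukaemia genotypes 1 was higher and 2 were lower, where 16.2% of all genes were called, at a median of −0.01. Stk17b, which encodes the DAPK-related kinase DRAK2 of lymphocytes, averaged 1818 ± 511 in MBD2-/- and 827 ± 190.1 in MBD2 wild-type leukaemias (1.11, adjusted p = 0.0274). Dap, a regulator of autophagy, fell to 911 ± 253 in MBD2-/- leukaemias, against 2590.4 ± 222 in MBD2 wild-type leukaemias (−1.52, adjusted p = 0.00243). Dap3, a mitochondrial ribosome gene, fell by 1.14 (adjusted p = 0.00172). The difference of the genotype effects, which reuses the leukaemia arrays and passed for 12.6% of all genes, was 1.76 for Stk17b, −1.67 for Dap and −1.0 for Dap3. It includes thymocyte genotype differences of −0.66 for Stk17b, 0.14 for Dap and −0.14 for Dap3, none of which passed. With MBD2, Stk17b was lower in leukaemias than in thymocytes (−1.36) and Dap (1.34) and Dap3 (0.64) higher, where 33.9% of all genes were called. Without MBD2 these 3 did not pass. Only Mib1 of the 10 tested was called there, higher in leukaemias (0.97, adjusted p = 0.00124), where 29.4% of all genes were called.

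The genes most like 4 of the 10 over the 12 arrays were named by Pearson's r of the log2 values, as a description. The arrays fall into 4 groups, so that r mostly reflects the group means. For Tnfsf10 they were Kit (r = 0.997), Gem and Arhgap6 (both 0.996). Kit averaged 801 in MBD2-/- leukaemias against 29.8 in MBD2 wild-type leukaemias, while of the other 5 mast cell and basophil markers Cma1, Fcer1a, Ms4a2 and Tpsb2 were below background on all 12 arrays and Mcpt8 averaged 53.8 in MBD2-/- and 10.9 in MBD2 wild-type leukaemias. For Dapk1 they were Pde4d (0.996), Selenop and Sestd1 (both 0.992). For Fas they were Lsp1 (0.993), Nim1k (0.991) and Kifc2 (0.99), and for Tnfrsf1a Bcl6 (0.996), Pgm2l1 (0.995) and Kcnh2 (0.994).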

How the data were processed

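Intensities of 45101 probe sets on 12 arrays, 3 for each of 4 groups, were used as deposited by the authors: a linear intensity per probe set, from 3.07 to 21620. Per the labels' protocols, biotin-labelled cRNA was made from 7 µg of total RNA per sample. How they were summarized and normalized, and which probe sets were detected, is not given in the sources used here. Since the 12 array medians of log2(intensity + 16) lay within 0.0752 of each other, no further normalization was applied. Array annotation gave 1 gene to 34945 probe sets, several to 932 and none to 9160, besides 64 control probe sets; 34741 single-gene probe sets matched a GRCm38.p6 gene table by identifier.

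For each of 18193 genes, the probe set of that gene alone with the highest mean log2 value was kept. The filter required a value above the array's 25th percentile on 3 or more arrays. Tests used lmFit and eBayes of limma 3.58.1 (R 4.3.3), each pair of groups in its own fit and the difference of genotype effects over all 12 arrays. A second fit used the 28372 probe sets that passed the filter. The fits were tested on simulated data. The number of arrays limits the precision. The genes and lists were chosen with earlier results of these data known. Named genes are the 10 genes, up to 4 genes of each list per direction with the smallest p, and the 3 genes most like each gene whose group means span at least 2 log2 units. Plots used matplotlib 3.10.9 in Python 3.11.15.

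Equal replicate numbers were checked for pairing by correlating deviations from group means across genes. Between leukaemia genotypes r was 0.40, 0.24 and 0.55 and between MBD2 wild-type leukaemias and thymocytes 0.45, 0.44 and 0.58. The numbers were treated as possible pairs there, from the data and not the labels. In the other 2 comparisons r went down to −0.52 and −0.43. The Gapdh 3' to 5' ratio rose with the number in both leukaemia groups and in MBD2 wild-type thymocytes. In MBD2-/- thymocytes it fell from 3.33 to 1.12. Pairing and RNA quality therefore cannot be told apart in the replicate blocks. Alternatives were other scalings, constants of 1 and 64, other filters and probe set rules, other eBayes settings, blocks for the replicate number or poly-A set, and leaving out each array.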

Additional observations from a re-analysis of the deposited data

Results flagged for a closer look

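The genotype effect of Tnfsf10 was larger in leukaemias than in thymocytes by 2.73 on the log2 scale, and that of Dapk1 by 2.18. Both were found because a test of the difference between the effects in the 2 cell types passed, where genotype and sex cannot be told apart in the leukaemias. Tnfsf10 had the same direction under all 24 alternatives, from 2.27 to 2.97, and Dapk1 under all 24, from 1.48 to 2.58, and both passed in each.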

How the results depend on the processing

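Of 1005 values of the 10 genes under the alternatives, 974 kept their direction where called and their side of the threshold, 13 lost and 18 gained a call, and 0 called values changed sign; 48 values called in neither setting changed sign. Among the leukaemia arrays without poly-A signal (2 against 1, the single array assumed to vary like the others) limma called 0 of the 10 genes and 0 of all genes, with 3 of the 10 at an unadjusted p under 0.05. Tnfsf10 was then at 2.72 (adjusted p = 0.173), Cflar at 1.43 (0.339) and Dapk1 at 2.26 (0.0794), with fewer arrays by construction. With the Gapdh ratio as a covariate, chosen after seeing the data, the difference of effects passed for 4 genes instead of 2. Over all 15420 genes tested it then passed for 2877 instead of 1943. Leaving out 1 array gave 2 to 4 called genes between leukaemia genotypes, 0 to 0 between thymocyte genotypes, 4 to 6 between MBD2 wild-type leukaemias and thymocytes, 5 to 5 between MBD2-/- leukaemias and thymocytes, and 2 to 3 for the difference of effects. With equal replicate numbers as a block (replicate block), 4, 0, 7, 5 and 2 genes were called in the same order, and the block changed no call beyond those of Casp8 and Dapk3. Over all genes the calls were 2493, 5, 5228, 4539 and 1943 in that order, and 3871, 0, 6980, 3513 and 2019 with the block. Leaving out 1 array gave 1412 (without MBD2 wild-type leukaemia 2) to 2429, 1 to 4, 3901 to 5216, 3290 to 4483 and 1515 to 2103. Between the leukaemia genotypes, centring on the 75th percentile moved the median of all genes to −0.11, with 45% of calls higher instead of 56.8%. For the difference of effects it moved to −0.15, with 47.8% instead of 62.4%. Tnfsf10, Cflar and Dapk1 stayed higher under every scaling. Cflar also lost its call between the leukaemia genotypes with a constant of 64 (adjusted p = 0.0681) and with no filter (0.0659). Casp8 gained one in that comparison with quantile normalization (0.048) and the poly-A block (0.0432).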
